A study of Mus musculus with 39 samples.

Results

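The genes described here are 48 cell cycle and proliferation genes, listed by symbol, in the lungs of mice fed permethrin or isoniazid. For each gene the brightest probe set annotated to its symbol alone was used, by the mean log2 signal over all 39 arrays. Of the 48 genes, 47 had such a probe set and 39 were bright enough to be tested, among 13020 genes tested in all. Ccnb1 was not analysed here. Cdc6, Tyms, Melk, Bub1b, Ttk, Cenpe, Aurkb and Kif20a had a mean log2 signal under 3.43 (a signal of 10.8) and were left out of the tests.

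The animals were female mice of the outbred stock Crlj:CD1(ICR), without a transgene or mutation, and each lung was measured on its own Affymetrix array. Powdered diet carried permethrin, a pyrethroid insecticide, at 5000 or 10000 ppm, or isoniazid, a tuberculosis drug that served as the positive control for tumour induction, at 2500 ppm, and the control groups received diet with 0 ppm. Feeding lasted 7 days (animals 11 weeks old) or 14 days (12 weeks old), so age and feeding time rise together. Each of the 8 groups held 5 animals, except permethrin 10000 ppm for 14 days with 4. The comparisons ask whether the lungs showed early growth before tumours.

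Cells that divide copy their DNA in S phase and separate the copies in mitosis. Cyclin E and E2F factors open S phase, MCM proteins form the replicative helicase, and ribonucleotide reductase and thymidine kinase supply nucleotides. Cyclins A and B with the kinase Cdk1 then drive mitosis, in which kinesins, the chromosome passenger complex and the spindle checkpoint move and guard the chromosomes. Transcripts of these genes are abundant in cycling cells and scarce in resting ones, and most cells of an adult lung are at rest. S-phase genes are commonly controlled through E2F sites in their promoters, and mitosis genes through a cell cycle genes homology region (CHR) together with CCAAT boxes bound by NF-Y.

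Promoters are shown for members whose levels are given below and, for its E2F letters, for Mcm6, a further helicase subunit, so that the letters counted over all members can be seen. Each run holds 120 bases before and 30 bases from the annotated gene start, 5′ to 3′ on the gene's strand, from RefSeq on build GRCm38.p6. Capitals mark the CHR letters TTTGAA or TTCGAA, the E2F letters TTTCCCGC, TTTGGCGC or TTTCGCGC, and CCAAT, each read on both strands.
Mki67: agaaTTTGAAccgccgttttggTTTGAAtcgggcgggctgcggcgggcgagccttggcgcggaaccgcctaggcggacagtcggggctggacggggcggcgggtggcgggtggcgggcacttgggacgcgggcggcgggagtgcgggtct
Top2a: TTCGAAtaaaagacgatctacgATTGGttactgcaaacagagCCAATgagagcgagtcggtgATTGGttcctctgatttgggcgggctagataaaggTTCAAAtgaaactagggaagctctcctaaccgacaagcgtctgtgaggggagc
Cdk1: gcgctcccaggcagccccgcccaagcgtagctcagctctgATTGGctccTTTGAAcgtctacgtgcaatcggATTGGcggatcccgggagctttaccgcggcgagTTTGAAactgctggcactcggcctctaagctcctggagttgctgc
Prc1: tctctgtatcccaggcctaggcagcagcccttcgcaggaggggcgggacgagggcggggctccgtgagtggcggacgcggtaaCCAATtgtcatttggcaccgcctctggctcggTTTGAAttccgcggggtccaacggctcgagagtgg
Kif2c: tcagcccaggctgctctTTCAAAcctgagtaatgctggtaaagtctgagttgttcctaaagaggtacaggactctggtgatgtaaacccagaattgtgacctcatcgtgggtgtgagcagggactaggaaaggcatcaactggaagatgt
Rrm2: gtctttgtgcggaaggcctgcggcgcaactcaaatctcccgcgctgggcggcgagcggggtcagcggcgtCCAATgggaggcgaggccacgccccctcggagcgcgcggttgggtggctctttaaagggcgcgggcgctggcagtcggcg
Tacc3: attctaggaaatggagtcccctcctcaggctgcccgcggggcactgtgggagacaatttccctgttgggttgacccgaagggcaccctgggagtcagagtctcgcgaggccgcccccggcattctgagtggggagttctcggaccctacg
Mcm6: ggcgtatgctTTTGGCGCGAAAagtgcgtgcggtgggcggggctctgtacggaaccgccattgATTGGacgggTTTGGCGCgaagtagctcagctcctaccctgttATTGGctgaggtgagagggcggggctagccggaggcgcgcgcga
Mcm7: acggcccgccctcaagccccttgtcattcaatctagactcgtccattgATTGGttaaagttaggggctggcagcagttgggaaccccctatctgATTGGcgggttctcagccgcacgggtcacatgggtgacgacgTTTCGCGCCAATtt
The positions are Mki67 chr7:135716350-135716499 (minus strand), Top2a chr11:99024160-99024309 (minus strand), Cdk1 chr10:69352883-69353032 (minus strand), Prc1 chr7:80294331-80294480 (plus strand), Kif2c chr4:117178743-117178892 (minus strand), Rrm2 chr12:24708134-24708283 (plus strand), Tacc3 chr5:33658008-33658157 (plus strand), Mcm6 chr1:128359676-128359825 (minus strand) and Mcm7 chr5:138171854-138172003 (minus strand). Mki67, Top2a, Cdk1, Prc1 and Kif2c hold CHR letters, Mcm6 and Mcm7 hold E2F letters, and Tacc3 holds none of the capitals. In Mcm7 the E2F and CCAAT letters overlap.

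A promoter window of 300 bases (250 before the start and 50 after it) was given for 40 of the 48 genes. Where several windows were listed for a gene, the first was used, also in the runs above. CHR letters stood in 19 of 25 mitosis genes (76%) and in 2 of 15 genes of the start of S phase, replication and nucleotide supply (13.3%), beside 13.6% of the 10484 tested genes with a window. E2F letters stood in 1 of 25 mitosis genes (4%) and in 6 of 15 of the others (40%), beside 3.46% of tested genes. CCAAT stood in 80% and 60% of these groups, beside 37.9%, and the SP1 letters GGGCGG in 84% and 80%, beside 62.8%. A match describes the letters only, and 14 members with a window held neither CHR nor E2F letters.

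The labelled tissue was borne out by its defining markers. The surfactant gene Sftpc had a mean log2 signal of 12.8 over all arrays, the club cell gene Scgb1a1 13.2 and the alveolar type I gene Ager 12.9, and all 8 lung epithelium markers were above the brightness limit. Whole lungs were measured, so fewer cells of a type and less RNA per cell cannot be told apart. Of the markers of thymus and T cell precursors, a tissue rich in dividing cells, 5 of 10 were above the limit, and Rag1, Rag2, Dntt, Ptcra and Cd4 were not. Of the red cell precursor markers 5 of 7 measured were above it, and Klf1 and Hemgn were not. Of the neutrophil markers 6 of 9 measured were above it, and the precursor genes Mpo, Elane and Ctsg were not. Array medians of the deposited signal ranged from 17.4 to 26.2. The log2 ratio of the 3′ to the 5′ control probe set of Gapdh, a sign of RNA quality, exceeded 0.7 on 7 arrays, all of 14 days.

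No cell cycle gene changed past the threshold in any comparison. With limma, an adjusted p under 0.05 (Benjamini-Hochberg over all 13020 genes) was reached by 0 of the 39 members in each of 14 comparisons. These were both permethrin doses and isoniazid against control at 7 days, at 14 days and over both times, one permethrin dose against the other, the change of each effect from 7 to 14 days, and control at 14 against 7 days. It was also reached by 0 members in an F test over the 8 groups. At 7 days 0.0922% of all genes passed for permethrin 5000 ppm, 0.238% for permethrin 10000 ppm and 0.0461% for isoniazid. At 14 days the shares were 0.131%, 0.215% and 0.0307%. Over both times they were 0.223%, 0.499% and 0.392%, and for the higher against the lower dose 0.00768%. Between the control groups of 14 and 7 days 0.115% of genes passed, and the F test called 2.15%. For the 3 changes of effect with time 0% of genes passed. At an unadjusted p under 0.05 the F test picked out 2 members, Mcm7 and Tacc3 (5.13%), against 16.7% of all genes.

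The mean log2 signal over the 39 tested members, taken per animal, lay close together in all groups. Group means ran from 5.31 ± 0.31 (SD, n = 5) in the 7-day control to 5.54 ± 0.26 (SD, n = 5) with isoniazid for 14 days. The spread within groups was 0.205 (pooled SD), which is close to the whole range of the group means. Control animals of 14 days lay between 5.18 and 5.48 and isoniazid animals of 14 days between 5.17 and 5.77, so those groups overlapped. The lowest animal of all was replicate 4 of the 7-day control, at 4.80. Its lung epithelium marker mean was 10.455, close to the next array, replicate 2 of permethrin 10000 ppm for 7 days, at 10.458. The 39 arrays reached 10.85 in these markers. The Gapdh ratio of replicate 4 of the 7-day control was 0.25. Among 14-day animals, the 7 with a Gapdh ratio above 0.7 had a median member mean of 5.18 and the other 12 a median of 5.47. The part of RNA quality in the members' levels was not tested.

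**Figure D1:**
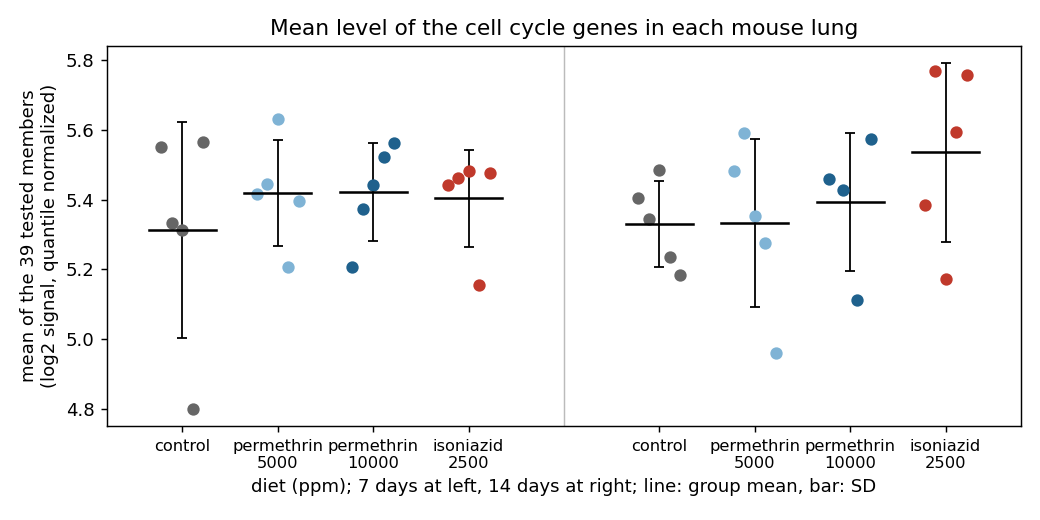
Mean log2 signal of the 39 tested cell cycle genes in each mouse lung (vertical axis) for the 4 diets at 7 days (left) and 14 days (right); points are animals, lines group means and bars SD. The groups overlap, and replicate 4 of the 7-day control is the lowest animal at 4.80.

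The estimates were precise enough to bound most members. With isoniazid for 14 days the 95% interval lay within 1 log2 unit of no change, that is within a doubling or halving, for 32 of 39 members. It did so for 32 members with permethrin 10000 ppm at 14 days and for 34 with 5000 ppm. At 7 days it did so for 35, 36 and 36 members with permethrin 5000 ppm, permethrin 10000 ppm and isoniazid. An interval reached 0.48 to either side of its estimate in the median of members (0.51 in the group of 4 animals), and from 0.21 for the most even gene to 1.09 for the most uneven in groups of 5. These intervals are not adjusted for the number of genes tested, and a difference as large as 1.05 (Tacc3, below) missed the adjusted threshold.

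At 14 days of isoniazid most members lay above control, and none passed the threshold. The median log2 difference was 0.15 (0.11 to 0.25 without each animal in turn), beside 0.00 over all genes, and 30 of 39 members were above control, beside 50.5% of all genes. An unadjusted p under 0.05 with a higher level was reached by 7 members (17.9%), against 3.51% of all genes, and by 0 members with a lower level, against 2.52%. These were Tacc3, Cdk1, Mki67, Nusap1, Cdca8, Prc1 and Rrm2. Members varied together between animals of one group, with a median r of 0.21 over pairs of tested members, beside 0.04 over all genes. Counts of members are therefore not counts of independent genes. All 8 tested spindle motors and microtubule proteins were above control, with a median of 0.38. The replication genes lay around zero, with a median of 0.08 and 6 of 10 above control. Both isoniazid and permethrin were set against the same control animals of 14 days. In those controls the cardiac muscle markers (9 of 9 above the brightness limit) had mean log2 levels from 6.79 to 8.71. The isoniazid animals had levels from 8.19 to 10.09. All 3 diets had higher group means of these markers than control: 8.94 and 8.97 with permethrin 5000 and 10000 ppm and 9.00 with isoniazid, against 7.78. Red cell precursor markers ranged from 5.30 to 5.68 in those controls and from 4.70 to 6.30 with isoniazid. Liver markers (5 of 7 measured above the limit, Ahsg and Fgb not) were lower in every isoniazid animal, from 4.16 to 5.07, than in any control, from 5.18 to 6.76. Brown fat markers (4 of 5 above the limit, Ucp1 not) ranged from 2.94 to 5.45 in those controls and from 3.60 to 7.45 with isoniazid. Their group means were 4.10 in controls, 5.29 and 6.55 with permethrin 5000 and 10000 ppm and 5.81 with isoniazid. The part of these cells in the members' values was not tested.

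**Figure D2:**
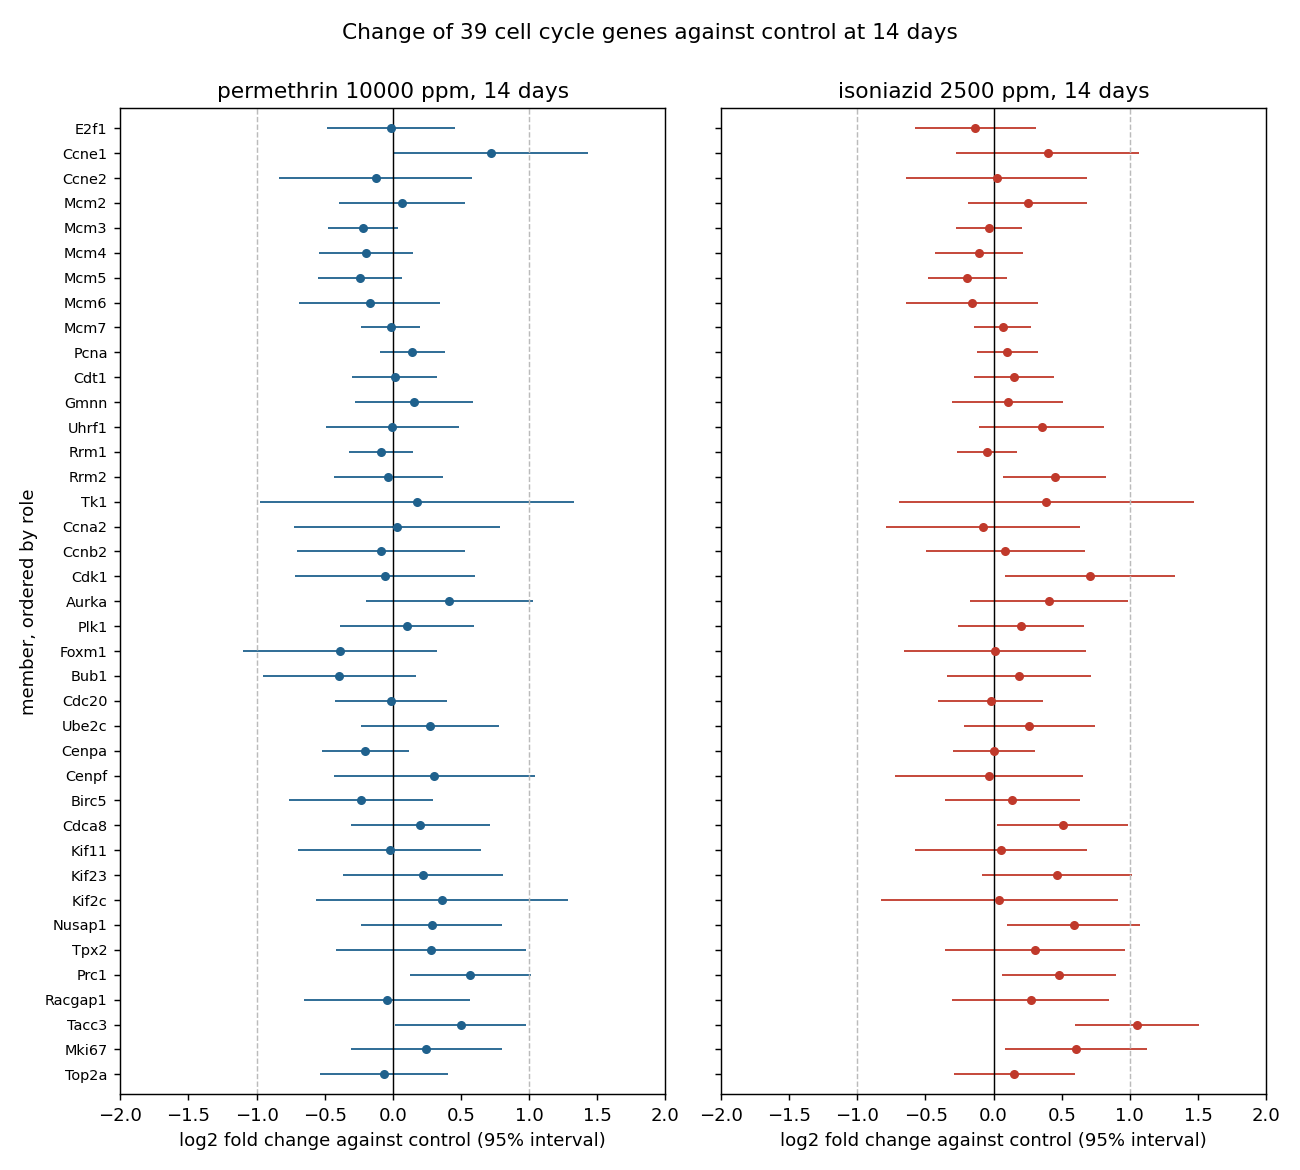
Log2 fold change against control at 14 days (horizontal axis, points) with 95% intervals (bars) for the 39 tested members, ordered by role, for permethrin 10000 ppm (left, 4 animals) and isoniazid 2500 ppm (right, 5 animals). Dashed lines mark a doubling and a halving. Tacc3 with isoniazid stands farthest from zero, at 1.05, and no member passed the adjusted threshold.

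Mki67, which encodes the Ki-67 protein that coats mitotic chromosomes and marks cycling cells, had log2 signals of 5.62, 6.08, 6.15, 5.40 and 5.47 in the 14-day controls. With isoniazid for 14 days it read 5.92, 6.83, 6.16, 6.44 and 6.40. The isoniazid animals were mostly higher, but the 2 groups overlapped, and the log2 difference was 0.60 (SE 0.26, limma adjusted p = 0.768). All 5 treated animals exceeded the control mean. Permethrin 5000 ppm for 14 days gave 6.37, 6.54, 5.70, 6.53 and 5.62, and 10000 ppm gave 5.77, 6.03, 5.54 and 6.62. Both groups overlapped the controls, with log2 differences of 0.41 and 0.25 (limma adjusted p = 0.970 and 0.975).

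At 7 days Mki67 read 6.88, 6.32, 5.88, 5.48 and 6.41 in controls and 5.98, 6.08, 6.20, 5.70 and 6.51 with isoniazid. Permethrin for 7 days gave 6.25, 6.50, 6.49, 5.17 and 5.99 at 5000 ppm and 5.96, 6.23, 5.95, 6.52 and 6.71 at 10000 ppm. No diet separated from control at 7 days, and the differences were -0.11, 0.08 and -0.10 for the lower dose, the higher dose and isoniazid. The 14-day controls were lower than the 7-day controls on average (log2 difference -0.45, limma adjusted p = 0.440). The isoniazid effect on Mki67 differed between the times by 0.70 (SE 0.36, limma adjusted p = 0.9996).

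Top2a encodes DNA topoisomerase II alpha, which untangles copied chromosomes and, like Mki67, is used as a mark of cycling cells. It read 5.58, 6.10, 6.06, 5.90 and 5.30 in the 14-day controls and 5.78, 6.30, 5.86, 5.89 and 5.86 with isoniazid for 14 days. The isoniazid animals lay inside or just above the control range, and the log2 difference was 0.15 (SE 0.22, limma adjusted p = 0.976). Permethrin for 14 days gave 5.79, 6.33, 5.84, 5.56 and 4.89 at 5000 ppm and 5.80, 5.78, 5.29 and 6.02 at 10000 ppm. Replicate 5 of the lower dose, with a Gapdh ratio of 1.34, stood well below the rest, and the differences were -0.10 and -0.07. At 7 days Top2a read 6.20, 5.84, 6.02, 5.31 and 5.999 in controls and 5.85, 6.08, 5.98, 5.03 and 6.02 with isoniazid. At that time permethrin gave 6.03, 6.47, 6.08, 5.57 and 5.76 at 5000 ppm and 5.81, 5.94, 5.62, 5.81 and 6.28 at 10000 ppm. All 4 groups of 7 days overlapped.

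Tacc3, a spindle protein that crosslinks the microtubules of kinetochore fibres, gave the largest difference of any tested member at 14 days. Its log2 signals were 3.34, 3.20, 4.06, 3.001 and 3.82 in the 14-day controls and 4.34, 4.91, 4.10, 4.49 and 4.83 with isoniazid for 14 days. Every isoniazid animal was above every control, which held for 1 of 39 members (2.56%) beside 0.315% of all genes. The log2 difference was 1.05 (SE 0.22), the unadjusted p was 4.03e-05 and the limma adjusted p 0.0752. At 7 days the same probe set read 4.07, 3.79, 3.63, 4.07 and 4.38 in controls and 3.29, 4.11, 3.09, 3.63 and 3.60 with isoniazid. There the isoniazid animals were mostly the lower ones, with a difference of -0.44 (limma adjusted p = 0.779). The change of the isoniazid effect from 7 to 14 days was 1.49 (SE 0.32, unadjusted p = 3.71e-05, limma adjusted p = 0.484).

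With permethrin for 14 days Tacc3 read 4.08, 3.70, 4.41, 4.17 and 4.05 at 5000 ppm and 3.96, 3.38, 4.38 and 4.19 at 10000 ppm. Most animals of both doses exceeded most 14-day controls, and the mean differences were 0.60 and 0.50 (limma adjusted p = 0.831 and 0.815). At 7 days permethrin gave 3.96, 4.14, 4.03, 4.08 and 3.91 at 5000 ppm and 3.95, 3.93, 4.38, 3.90 and 3.83 at 10000 ppm, within or at the edge of the control range. The 14-day controls themselves lay below the 7-day controls by 0.50 (log2 difference -0.50, limma adjusted p = 0.302). The used probe set was dim, with a mean of 3.95. The other 2 probe sets of Tacc3, with means of 3.64 and 2.10, did not show the isoniazid difference at 14 days. They gave -0.19 (SE 0.36) and -0.35 (SE 0.78), so the 3 probe sets of the gene disagreed in sign.

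Cdk1, the kinase that starts mitosis, read 4.12, 4.51, 4.53, 3.92 and 4.07 in the 14-day controls. Isoniazid for 14 days gave 5.23, 5.47, 4.42, 5.14 and 4.44. The lower 2 isoniazid animals fell within the control range and the other 3 lay above it, with a log2 difference of 0.71 (SE 0.31, limma adjusted p = 0.768). Permethrin for 14 days gave 4.61, 4.90, 4.52, 4.01 and 2.97 at 5000 ppm and 4.71, 4.26, 3.33 and 4.39 at 10000 ppm. Each permethrin group held 1 animal far below all controls, and the differences were -0.03 and -0.06. These animals were replicate 5 at 5000 ppm and replicate 3 at 10000 ppm, with Gapdh ratios of 1.34 and 1.29, above the limit of 0.7. The part of RNA quality in their values was not tested. At 7 days the controls read 4.69, 4.42, 4.45, 3.33 and 4.76 and the isoniazid animals 4.67, 4.80, 4.36, 4.45 and 4.80. Permethrin for 7 days gave 4.73, 4.67, 4.99, 4.005 and 4.28 and 4.06, 4.46, 4.59, 5.17 and 5.18 at the lower and the higher dose. Control replicate 4 was the lowest of the 20 animals of 7 days, and the groups overlapped.

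Rrm2, the S-phase subunit of ribonucleotide reductase, read 6.31, 6.48, 6.16, 6.44 and 6.31 in the 14-day controls and 6.58, 7.09, 6.37, 6.66 and 7.25 with isoniazid for 14 days. All isoniazid animals exceeded the control mean, 1 lay inside the control range, and the difference was 0.45 (SE 0.19, limma adjusted p = 0.768). The other 2 probe sets of Rrm2 gave 0.36 and 0.43 in the same direction. At 7 days Rrm2 read 6.86, 6.46, 6.35, 5.66 and 6.49 in controls and 6.66, 6.54, 6.80, 6.52 and 6.95 with isoniazid, a difference of 0.33 (limma adjusted p = 0.822). All 5 isoniazid animals exceeded the control mean, which includes replicate 4 at 5.66, the lowest of all 7-day animals. Only the isoniazid animal at 6.95 lay above the range of the other controls, 6.35 to 6.86, and the groups overlapped. Permethrin gave 6.51, 6.31, 6.72, 6.06 and 6.33 (5000 ppm, 7 days) and 6.37, 6.42, 6.57, 6.38 and 6.82 (10000 ppm, 7 days). At 14 days it gave 6.60, 6.97, 6.11, 6.58 and 5.83 and 6.36, 6.27, 6.08 and 6.53. The permethrin groups overlapped their controls, with differences between -0.03 and 0.15.

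Prc1, which bundles the microtubules of the central spindle during cell division, had the smallest isoniazid p over both times among the members. It read 4.58, 4.38, 5.10, 3.79 and 4.30 in the 14-day controls and 4.38, 5.23, 4.66, 5.20 and 5.08 with isoniazid for 14 days. The difference was 0.48 (SE 0.21, limma adjusted p = 0.768) and the groups overlapped. Permethrin 10000 ppm for 14 days gave 5.05, 5.21, 4.77 and 4.95, all above the control mean, with a difference of 0.57 (SE 0.22, limma adjusted p = 0.628). Permethrin 5000 ppm gave 5.08, 4.50, 4.89, 4.49 and 4.82, also all above the control mean. At 7 days Prc1 read 4.77, 4.38, 4.26, 4.29 and 4.91 in controls and 5.32, 4.81, 4.94, 4.46 and 5.18 with isoniazid. Permethrin for 7 days gave 4.59, 4.81, 4.76, 4.52 and 4.42 and 4.61, 4.89, 4.30, 4.83 and 5.12. The isoniazid difference at 7 days was 0.42 (limma adjusted p = 0.753), and over both times isoniazid gave the smallest adjusted p of any member there, 0.228. A dimmer probe set of Prc1 gave -0.03 (SE 0.54) at 14 days of isoniazid. With that SE it cannot show whether the 2 probe sets shared the difference.

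Mcm7, a subunit of the replicative helicase, had the smallest p after Tacc3 in the limma F test (adjusted p = 0.137), and its group means were higher at 14 than at 7 days for each diet. The 7-day groups read 8.35, 8.13, 8.07, 8.12 and 8.32 (control), 8.13, 8.12, 8.19, 7.95 and 8.20 (permethrin 5000 ppm), 7.97, 8.12, 8.24, 8.16 and 8.48 (permethrin 10000 ppm) and 8.15, 8.24, 8.16, 8.21 and 8.0004 (isoniazid). The 14-day groups read 8.08, 8.40, 8.29, 8.66 and 8.56 (control), 8.38, 8.37, 8.17, 8.31 and 8.44 (permethrin 5000 ppm), 8.31, 8.46, 8.39 and 8.37 (permethrin 10000 ppm) and 8.57, 8.27, 8.31, 8.37 and 8.80 (isoniazid). Single animals of the 2 times overlapped, and the difference between the control groups was 0.20 (SE 0.10, limma adjusted p = 0.374). Differences of the diets from control lay between -0.08 and 0.07 at either time. Tacc3, the member with the smallest F test p, had an adjusted p of 0.059.

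**Figure D3:**
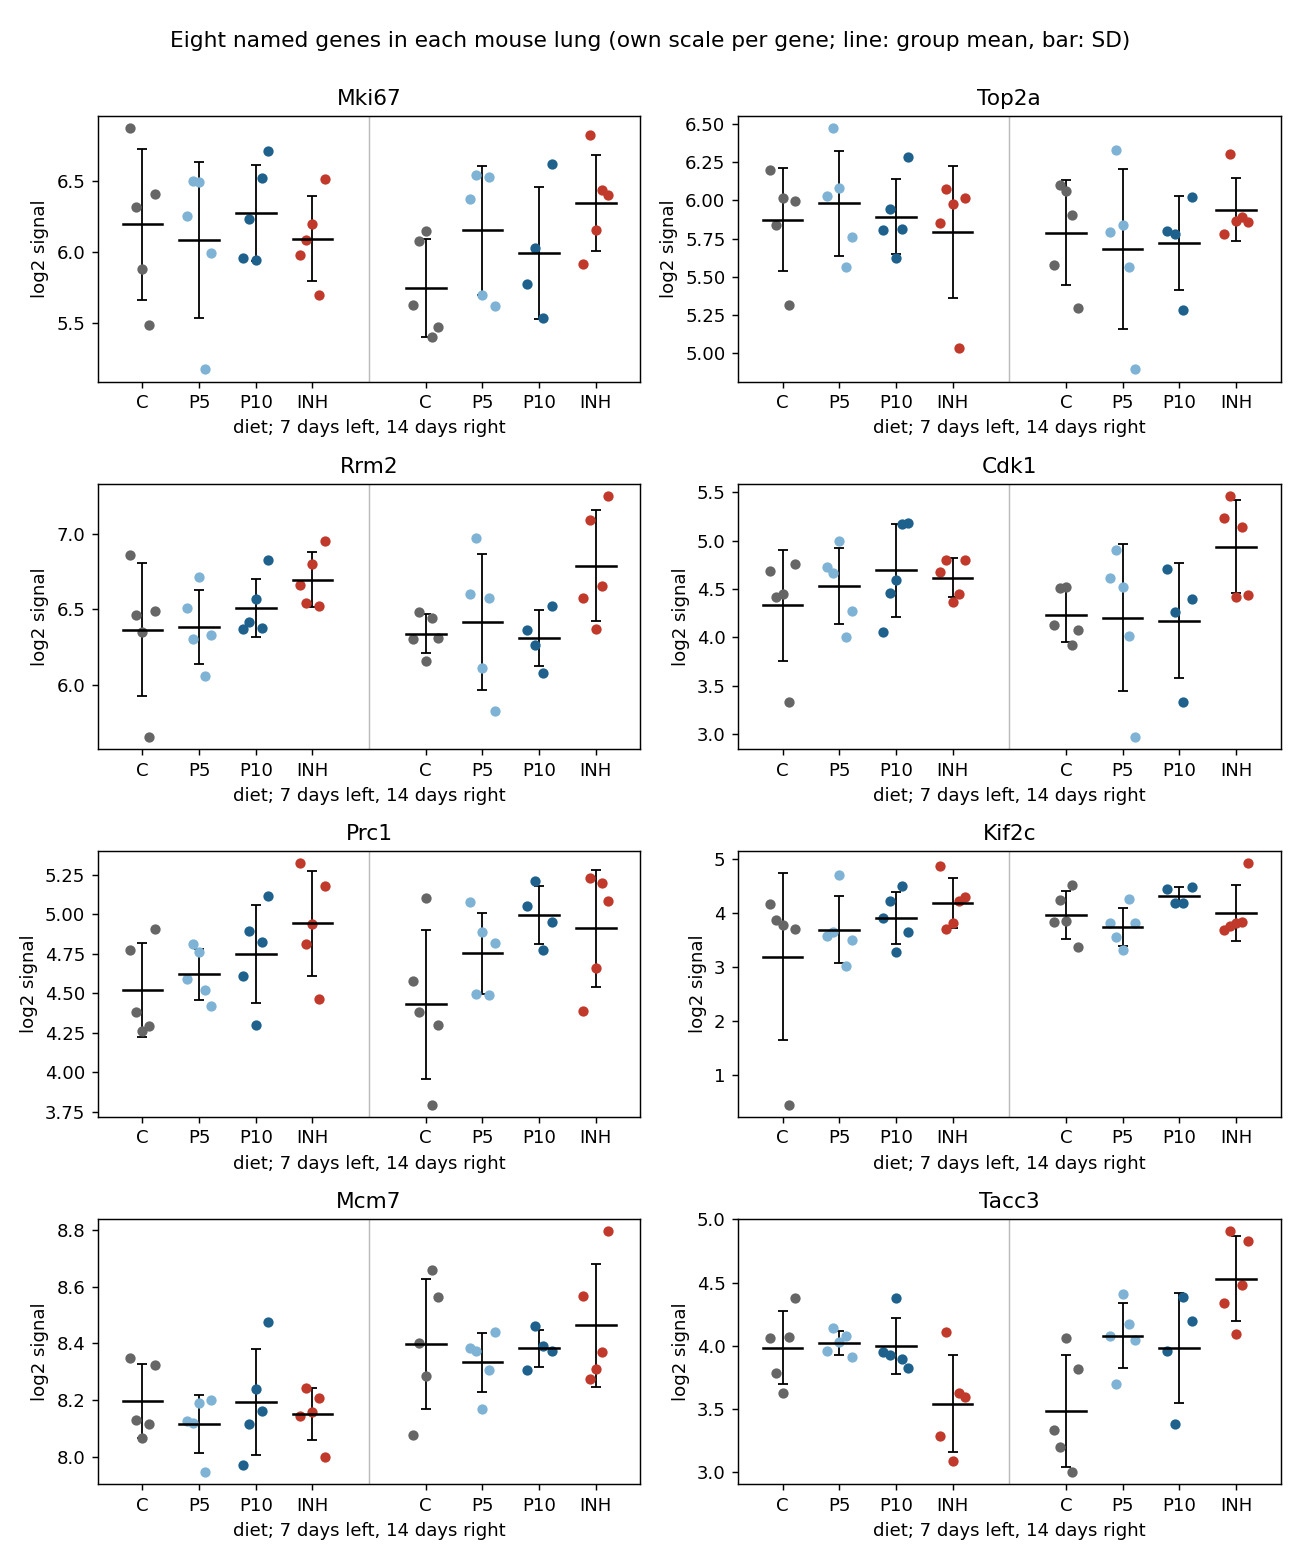
Log2 signal (vertical axis, own scale for each gene) of Mki67, Top2a, Rrm2, Cdk1, Prc1, Kif2c, Mcm7 and Tacc3 in each mouse lung, at 7 days (left) and 14 days (right); C is control, P5 and P10 permethrin at 5000 and 10000 ppm, INH isoniazid; points are animals, lines group means and bars SD. The isoniazid animals of 14 days lie above all 14-day controls for Tacc3 alone of these genes, and replicate 4 of the 7-day control is far below the others for Kif2c, at 0.45.

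Kif2c, a kinesin that takes microtubules apart at centromeres, had a 7-day difference that rested on 1 control animal. The 7-day controls read 4.16, 3.87, 3.78, 0.45 and 3.70, and isoniazid for 7 days gave 4.88, 3.71, 3.82, 4.22 and 4.29. The difference was 0.99 (SE 0.43, limma adjusted p = 0.671), and without control replicate 4 it was 0.31. Permethrin for 7 days gave 3.58, 3.65, 4.71, 3.01 and 3.50 and 3.91, 4.23, 3.28, 4.49 and 3.64, spread around the other 4 controls. At 14 days Kif2c read 3.84, 4.24, 3.85, 4.52 and 3.36 in controls, 3.82, 3.55, 3.31, 4.25 and 3.81 with permethrin 5000 ppm, 4.45, 4.18, 4.18 and 4.49 with 10000 ppm and 3.69, 3.76, 3.82, 3.84 and 4.92 with isoniazid. The groups of 14 days overlapped. Tk1, the thymidine kinase of S phase, was alike: its isoniazid difference at 7 days was 1.14 (limma adjusted p = 0.731), and 0.24 without that animal.

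Over all members the comparisons at 7 days were near zero. The median log2 difference was 0.08 with permethrin 5000 ppm, 0.08 with 10000 ppm and 0.03 with isoniazid, beside -0.01, 0.00 and 0.01 over all genes. Without replicate 4 of the 7-day control these became -0.03, 0.00 and -0.05. Members above control numbered 28 of 39 at each permethrin dose (46% and 49.4% of all genes) and 24 of 39 with isoniazid (53.7%). At an unadjusted p under 0.05 no member was higher with either permethrin dose (1.09% and 2.04% of all genes) and 3 were with isoniazid (7.69%, against 3.82%), namely Tk1, Kif2c and Prc1. No member was lower at that level in these 3 comparisons, against 0.899%, 1.11% and 2.7% of all genes.

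With permethrin for 14 days no member passed the threshold. The median log2 difference was -0.03 at 5000 ppm and 0.00 at 10000 ppm, beside 0.00 and 0.02 over all genes. Without replicate 3 of the 10000 ppm group, which had a Gapdh ratio of 1.29, the median at that dose was 0.18. At each dose 19 of 39 members were above control, beside 48.7% of all genes at 5000 ppm and 54.4% at 10000 ppm. At an unadjusted p under 0.05, Tacc3 was higher at 5000 ppm (1 of 39, 2.56%, against 3.12% of all genes). At 10000 ppm Ccne1, the cyclin that drives entry into S phase, was higher by 0.72 (limma adjusted p = 0.819), with Prc1 and Tacc3 (3 of 39, 7.69%, against 4.16%). A dimmer probe set of Ccne1, with a mean of 2.45, gave -1.27 (SE 0.79) there, so its 2 probe sets disagreed in sign. No tested member was lower at that level (2.1% and 1.88% of all genes). Without the arrays of a Gapdh ratio above 0.7 the medians of members were 0.07 at 5000 ppm, 0.11 at 10000 ppm and 0.14 with isoniazid. The higher dose against the lower, over both times, gave a median of 0.02, equal to that of all genes.

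Few tested members reached an unadjusted p under 0.05 in the remaining comparisons. Over both times permethrin 5000 ppm had 1 member, Mcm3, which was lower (3.73% of all genes in either direction). Permethrin 10000 ppm had 3 (6.52%), with Ccne1 and Prc1 higher and Cenpa, the histone variant of centromeres, lower. Isoniazid had 3 (9.14%), Rrm2, Cdk1 and Prc1, all higher. The 2 permethrin doses against each other gave 0 (3.35%). The change of effect from 7 to 14 days gave 0 for permethrin 5000 ppm (2.85%), 0 for 10000 ppm (2.25%) and 1, Tacc3, for isoniazid (2.95%). Between the control groups of 14 and 7 days 1 member, Tacc3, was lower at that level, against 13.9% of all genes. The median over members of that control comparison was -0.01, beside 0.02 over all genes.

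By role, the genes that open S phase (E2f1, Ccne1, Ccne2) had a median between -0.11 and 0.13 against control in the 6 comparisons at single times. The 10 tested licensing and replication genes had medians from -0.08 to 0.08. The 3 tested genes of nucleotide supply (Rrm1, Rrm2, Tk1) had medians from -0.03 to 0.39. The 6 tested mitotic cyclins, kinases and the factor Foxm1 had medians from -0.08 to 0.24. Spindle checkpoint and anaphase genes (Bub1, Cdc20, Ube2c) had medians from -0.16 to 0.20, and the centromere and passenger genes (Cenpa, Cenpf, Birc5, Cdca8) from -0.07 to 0.08. The 8 spindle motors and microtubule proteins had medians above zero in all 6 comparisons, from 0.06 to 0.38. None of these medians carries a test, and the comparisons of one time share their control animals. The 8 dim members, fitted with the brightness limit removed, held 0 adjusted calls. At 14 days they ranged from -1.70 (Tyms) to 0.71 (Melk) with isoniazid and from -1.80 (Tyms) to 0.36 (Bub1b) with permethrin 10000 ppm. In the latter comparison Aurkb was lower by 1.11 (log2 difference -1.11, SE 0.45, limma unadjusted p = 0.0183, adjusted p = 0.658). Its change of that effect from 7 to 14 days was -1.64 (SE 0.62, limma unadjusted p = 0.0119, adjusted p = 0.9999).

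Animals of one group also differed in Mki67, and other genes were set against it. This was measured as the slope of each gene on Mki67 with the 8 group means in the model, so that differences between diets play no part, and tested with limma over the other 13019 genes. The test was chosen after the data were seen. With an adjusted p under 0.05, 6 genes followed Mki67 (0.0461%) and none opposed it. Of these, 2 were members, Top2a (slope 0.62, SE 0.11, adjusted p = 0.00461) and Rrm2 (slope 0.52, SE 0.090, adjusted p = 0.00461). The other 4 were Cep55, which completes the separation of daughter cells (slope 0.72, adjusted p = 0.00237), Kif22, a kinesin that carries chromosome arms (0.65, 0.00241), Pclaf, a partner of the replication clamp PCNA (0.48, 0.0125), and Iqgap3, a scaffold protein (0.77, 0.0159). Without replicate 4 of the 7-day control, Top2a alone among the members passed (0.023% of all genes). Without replicate 5 of isoniazid at 14 days 6 members passed (0.0999% of all genes). Without replicate 3 or replicate 4 of permethrin 5000 ppm at 14 days 4 did (0.0614% and 0.0845%). With arrays centred on their median in place of quantile normalization 9 members passed (0.33% of all genes). Fitted on the 20 animals of 7 days or the 19 of 14 days alone, limma called 0 members, while 21 and 11 had a positive slope at an unadjusted p under 0.05 (11.3% and 2.71% of all genes). All values of an animal come from its 1 array, so they share its hybridization.

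**Figure D4:**
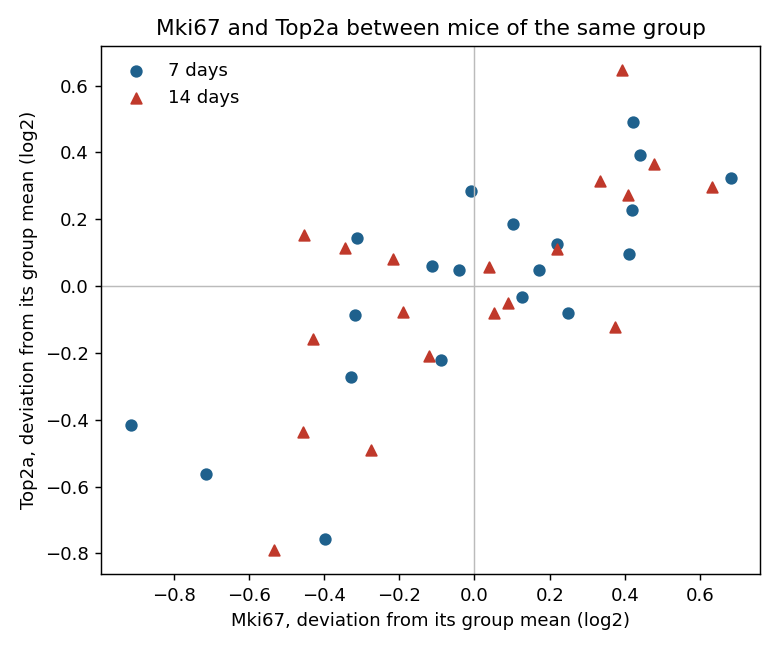
Deviation of Top2a from its group mean (vertical axis, log2) against that of Mki67 (horizontal axis, log2) in the 39 lungs; circles are animals of 7 days and triangles animals of 14 days. The points rise together, with a Pearson r of 0.74.

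At an unadjusted p under 0.05, 23 of 38 members had a positive slope on Mki67 (60.5%), beside 7.34% of all genes, and 0 members a negative one, beside 2.27%. Of the 22 mitosis genes 16 were among the 23, with a median slope of 0.55, and of the 16 genes of S-phase entry, replication and nucleotide supply 7 were, with a median of 0.16. All 3 checkpoint and anaphase genes and 3 of 4 centromere and passenger genes were included, against 3 of 10 licensing and replication genes. Cdk1 (slope 0.77, limma adjusted p = 0.0574), Cdca8 (0.59, 0.0574) and Birc5 (0.59, 0.0845) came next after Rrm2. At the other end Mcm2 (-0.01), Mcm4 (-0.05), Gmnn (-0.14), the inhibitor of origin licensing, and Foxm1 (-0.20) had slopes around or below zero, as had Tacc3 (0.04, SE 0.15, limma adjusted p = 0.950). The difference between the roles was not tested.

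**Figure D5:**
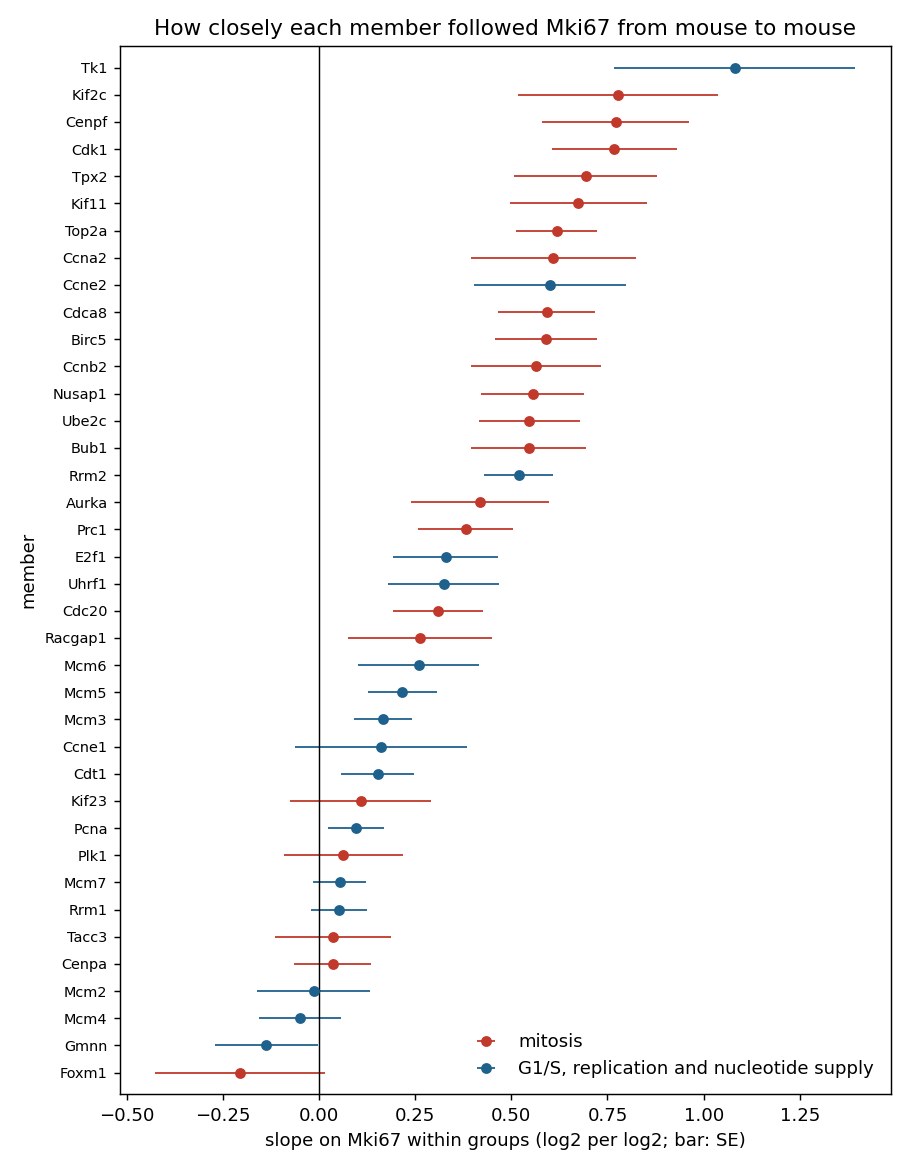
Slope of each member on Mki67 between animals of one group (horizontal axis, log2 per log2; points, with SE as bars) for 38 members, coloured by role (mitosis, or S-phase entry, replication and nucleotide supply). Most mitosis genes lie between 0.26 and 0.78, and Tacc3 lies at 0.04.

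Over the 39 animals the deviations of Mki67 and Top2a from their group means had a Pearson r of 0.74 and a Spearman rho of 0.73. The permutation p was 1e-05 for each, the smallest that 100000 permutations can give, and 0.00016 after adjustment over 16 relations computed. Without the 2 animals farthest from the median of Mki67 r was 0.70. Within the 7-day animals r was 0.78 (n = 20) and within the 14-day animals 0.69 (n = 19). The other 15 relations of Mki67 were with marker means of 13 cell types, the Gapdh ratio and the array median, and none passed after adjustment. The closest was with red cell precursor markers, with r 0.39 and rho 0.38 (permutation p = 0.0146 and 0.0168, adjusted 0.117 and 0.134, r 0.37 without the 2 farthest animals). It was 0.44 at 7 days and 0.32 at 14 days. With the Gapdh ratio r was -0.05 and rho -0.02 (permutation p = 0.783 and 0.911, adjusted 0.964 and 0.979, r -0.14 without the 2 farthest animals), but it was 0.70 within 7 days and -0.37 within 14 days. The part of RNA quality in the relation of Mki67 and Top2a was not tested.

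Other genes of the cell cycle were taken from lists that hold none of the members. Of 156 genes on 7 further lists, 133 were tested, and 0 passed the adjusted threshold of limma in any of the 14 comparisons. In isoniazid at 7 days 15 had an unadjusted p under 0.05 (11.3%, beside 6.52% of all genes), and in isoniazid at 14 days 4 did (3.01%, beside 6.03%). The lists were CDK inhibitors (7 tested), D cyclins and interphase kinases (11), the RB, E2F and DREAM factors (17), checkpoint and CDC25 genes (12), other replication genes (29), other mitosis genes (36) and growth signals (21). The F test over the 8 groups called 1 of the 133 (0.752%), fewer in proportion than the 2.15% of all genes. It was Fos, an early gene of growth and stress signals (limma adjusted p = 0.0263). Its group means at 7 days were 8.14 in controls, 8.39 and 8.38 with the lower and the higher permethrin dose and 8.93 with isoniazid. At 14 days they were 8.09, 8.22, 8.85 and 8.37 in the same order. Against control Fos was 0.79 higher with isoniazid at 7 days and 0.76 higher with permethrin 10000 ppm at 14 days (limma adjusted p = 0.125 and 0.137). Cdkn1a, the p53 target p21 that halts the cycle, was 0.70 higher with isoniazid at 7 days (limma adjusted p = 0.670). The 7 CDK inhibitors did not move one way there: their median was 0.01, and 4 had an unadjusted p under 0.05. Group means of Cdkn1c (7.93 against 7.47 in control) and Cdkn2d (7.88 against 7.49) were higher. Those of Cdkn2a (3.91 against 4.83), Cdkn2b (7.98 against 8.22) and Cdkn2c (8.06 against 8.37) were lower, and Cdkn1b was level (8.79 in each).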

How the data were processed

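Per the submitters' processing notes, the authors computed the deposited signal intensity of each probe set with MAS5, of a version not given in the sources used here. The trimmed mean of every array is 100.001, and the 39 columns of the table were all used. Intensities were taken to log2 and quantile normalized over the 39 arrays (R 4.3.3, limma 3.58.1). One probe set stood for each gene, and genes in the upper 60% of 45101 probe sets less 64 controls by mean were tested (mean log2 of at least 3.43). Of the probe sets 34945 carried 1 symbol, 932 several and 9160 none.

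Group means of all 8 groups were fitted with limma (lmFit, contrasts.fit, eBayes with trend, 31 residual degrees of freedom before moderation), two-sided, with Benjamini-Hochberg adjustment over all genes. The code was tested on simulated data. Animals are the replicates, and p-values measure the spread between animals. The members and the lists were chosen with earlier results of these data known, so no p is given for the members or the further gene lists as a whole. Means of marker lists were tested only in their correlation with Mki67. Values in every animal are given for Mki67, Top2a and the 6 members with the smallest F test p, and other members by the largest changes of a comparison, by an unadjusted p under 0.05 or by role. Kif2c without 1 control, Tk1, the single CDK inhibitors and the genes following Mki67 were named after their values were seen. Alternatives were another scaling, a pseudocount of 4, other brightness limits, each probe set on its own, array weights, a replicate block, the compared groups alone, the removal of arrays with a high Gapdh ratio and of each array in turn. Promoter windows and letters were matched by symbol in RefSeq.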

Additional observations from a re-analysis of the deposited data

Results flagged for a closer look

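In 7 of 72 groups checked (8 groups of animals for each of the 8 named genes and for the member mean), the highest or lowest animal lay apart from the others by Dixon's criterion at 95%, where chance gives about 1 in 20. Replicate 4 of the 7-day isoniazid group was the lowest of its group for the member mean, at 5.155 against 5.441 for the next animal, and for Top2a, at 5.033 against 5.85. Replicate 4 of the 7-day control was lowest for Cdk1, at 3.334 against 4.421, and for Kif2c, at 0.4497 against 3.703. Replicate 2 of the 14-day isoniazid group was highest for Top2a, at 6.304 against 5.889, and replicate 5 of that group was highest for Kif2c, at 4.92 against 3.839. Replicate 3 of permethrin 10000 ppm for 7 days was highest for Tacc3, at 4.382 against 3.949.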

How the results depend on the processing

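The counts of members past the threshold and the medians of members were recomputed under the other settings and without each array. Of 149 counts under other settings 148 were unchanged at 0, and the exception was the F test without the arrays of high Gapdh ratio, which called 1 member (Pcna, limma adjusted p = 0.04998). Leaving out each array in turn gave 0 to 1 members in the F test, which was Tacc3 without replicate 2 of isoniazid at 7 days (0.04036), replicate 3 of the 14-day control (0.03534), replicate 2 of permethrin 10000 ppm at 14 days (0.0453) or replicate 3 of isoniazid at 14 days (0.02989). It gave 0 to 1 members for isoniazid at 14 days, which was Tacc3 without replicate 3 of the 14-day control (log2 difference 1.19, limma adjusted p = 0.0373). The medians of members were not stable in sign. Of 140 medians under other settings 19 changed sign, and of 206 without 1 array 29 did. All moved by less than the pooled SD between animals (0.205), which is larger than any median in the reported setting. Without 1 array the isoniazid median at 14 days reached 0.25. The isoniazid median over both times, 0.1445, was 0.03 with the upper 40% of probe sets alone, and permethrin 5000 ppm at 7 days went from 0.08 to -0.03 without 1 array, replicate 4 of the 7-day control. With the replicate block 0 members passed in any comparison, and the isoniazid median at 14 days stayed at 0.148. Same-numbered animals of different groups deviated with a median r of 0.03, and 33 of 133 pairs exceeded 0.1. For animals of different numbers the median r was -0.016. Of 39 arrays, 13 were closest to their own number. The 14-day arrays with a Gapdh ratio above 0.7 all had replicate numbers 3 to 5. Whether the replicate number stood for shared handling of the animals was not tested.

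At an unadjusted p under 0.05, 23.4% of all genes had a positive slope on Mki67 with arrays centred on the median, against 7.34% in the reported setting. At the adjusted threshold these shares were 0.33% and 0.0461%. The count of members following Mki67, 2 in the reported setting, was 9 with arrays centred on the median. It was 0 within 7 days and 0 within 14 days alone (limma, 21 and 11 members at an unadjusted p under 0.05, beside 11.3% and 2.71% of all genes), where 20 and 19 arrays were fitted. It was 2 with the replicate block, and 1 to 6 without each array in turn (6 without replicate 5 of isoniazid at 14 days, 4 without replicate 3 or replicate 4 of permethrin 5000 ppm at 14 days, 1 without replicate 4 of the 7-day control). Of all genes 0.0538% passed with the replicate block, and between 0.023% and 0.0999% without each array in turn. The number of arrays limits what could be detected.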
